A study of Mus musculus with 11 samples.

Results

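The regions described here are the intronic H3K27ac regions of mouse pancreatic endocrine cells. They are the regions of the deposited H3K27ac table that the submitters' annotation places in an intron and that are narrower than 3000 bp, after 35 repeats of the same gene position and region were dropped. There are 8786 of them among 31479 H3K27ac regions (27.9%). The study used CUT&Tag, which cuts and tags DNA beside an antibody-bound chromatin mark, in cells sorted at postnatal day 9 for the tdTomato signal of the Ai14 Cre reporter. Control mice were Isl1loxP/+;Neurod1-cre, so they already carry 1 floxed Isl1 allele, and Isl1CKO mice were Isl1loxP/loxP;Neurod1-cre. Both groups carry the Neurod1-cre transgene and are littermates of both sexes, and Cre acts only in cells with Neurod1 activity, which in the pancreas are the endocrine cells and their precursors. Each group has 2 H3K27ac libraries, each from a separate pool of 3 to 4 pancreases and about 20000 cells, so a value is an average over all endocrine cell types of several animals, and fewer cells of a type cannot be told apart from less mark per cell.

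Acetylation of histone H3 at lysine 27 marks active promoters and active enhancers. Away from gene starts, and often inside introns, it is used as a sign of enhancers, which can act on the gene that holds them or on a neighbour, so the gene of the intron and the gene with the nearest start are both names of convenience. ISL1 is a LIM-homeodomain transcription factor needed for the maturation of endocrine cells, where it works with the adaptor LDB1 and alongside PDX1, NEUROD1 and PAX6.

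The sequence of an intronic region is not printed, as no genome of the build of the files (GRCm39) was used. RefSeq promoters (GRCm38.p6, from 250 bases before to 50 bases after the gene start, 5′ to 3′ on the gene's strand) are shown for 3 genes whose introns carry results below: Isl1, the deleted gene, and Sdk2 and Chst11, whose intronic H3K27ac fell. The stretches lie at chr13:116309639-116309938 (minus strand), chr11:114066980-114067279 (minus strand) and chr10:82985247-82985546 (plus strand).
Isl1: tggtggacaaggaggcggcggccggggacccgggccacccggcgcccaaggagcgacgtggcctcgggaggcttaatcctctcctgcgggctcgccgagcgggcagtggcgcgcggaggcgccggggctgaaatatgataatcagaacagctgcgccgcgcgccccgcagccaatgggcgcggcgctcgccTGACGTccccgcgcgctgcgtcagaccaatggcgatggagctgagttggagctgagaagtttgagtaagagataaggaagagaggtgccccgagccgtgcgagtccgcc
Sdk2: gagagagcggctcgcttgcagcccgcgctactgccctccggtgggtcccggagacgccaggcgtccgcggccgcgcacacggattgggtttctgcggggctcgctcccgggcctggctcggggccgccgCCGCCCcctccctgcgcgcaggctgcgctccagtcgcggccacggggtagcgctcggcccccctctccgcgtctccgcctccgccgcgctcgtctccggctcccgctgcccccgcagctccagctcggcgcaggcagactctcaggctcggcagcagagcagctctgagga
Chst11: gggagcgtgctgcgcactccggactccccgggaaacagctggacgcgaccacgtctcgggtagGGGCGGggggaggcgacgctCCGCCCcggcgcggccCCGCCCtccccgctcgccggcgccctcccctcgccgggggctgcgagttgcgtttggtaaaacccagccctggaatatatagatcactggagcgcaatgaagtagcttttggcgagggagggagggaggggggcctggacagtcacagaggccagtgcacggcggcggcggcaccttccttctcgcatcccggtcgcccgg
Capitals mark every match, on either strand, to 10 short motifs. These are TAATGG (ISL1 homeobox, in 7.73% of 32851 RefSeq promoters of this length), TAATTA (PDX1 and NKX homeobox, 5.29%), TGTTTAC (FOXA forkhead, 3.65%), CAGATG (NEUROD1 E-box, 17.2%) and GTTGCC (RFX site, 12.5%), with TGCTGA (MAF site, 19.5%), TGANTCA (AP-1, 7.81%), TGACGT (cAMP response element, 7.51%), GGGCGG (SP1 GC box, 35.7%) and CCGGAAG (ETS, 8.86%). The Isl1 promoter holds 1 match, to the cAMP response element, the Sdk2 promoter 1 to the GC box and the Chst11 promoter 3 to the GC box. A match is a description of the letters and not a bound site.

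The libraries held 1307049 and 1815511 H3K27ac counts in all regions in Control replicates 1 and 2, and 681047 and 1441926 in Isl1CKO replicates 1 and 2. Levels are given as CPM, counts scaled to 1000000 of the library size, adjusted by TMM (a trimmed mean of ratios between libraries). With these sizes, 3 counts are worth from 1.64 CPM in Control replicate 2 to 4.56 CPM in Isl1CKO replicate 1. Control replicate 2 stood apart inside introns, as it did in distal intergenic and exon regions. Across the intronic regions, Pearson's r of log2(CPM + 1) was 0.03 to 0.09 between Control replicate 2 and each other library. Among the other 3 it was 0.52 to 0.60. Across distal intergenic regions the same ranges were 0.03 to 0.12 and 0.55 to 0.62, and across exon regions 0.14 to 0.22 and 0.58 to 0.65. Across promoter regions they were 0.52 to 0.56 and 0.77 to 0.79. In 512 intronic regions (5.83%) over 70% of the summed CPM came from Control replicate 2, against 5, 2 and 7 regions for Control replicate 1 and the 2 Isl1CKO libraries, and 242 promoter regions (1.61%) had the same property. These 512 regions were narrow, with a median width of 500 bp against 853 bp for the others, and 81 of them passed the filter on low counts. The main results are therefore given with and without this library.

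The intronic regions were short and lightly covered. Their median width was 829 bp (292 to 2999 bp), and their median count over the 4 libraries together was 75, against 161 for promoter regions. Every region listed in the deposited table has at least 50 counts over the 4 libraries. By width, the H3K27ac level was lower than at promoters in each library: the median CPM per kb was 16.3, 22.9, 14.9 and 17.0 in Control 1, Control 2, Isl1CKO 1 and Isl1CKO 2, against 26.8, 25.5, 26.7 and 26.3 at promoters. The distance between Control replicate 2 and the rest is visible here too, as its intronic median was the highest of the 4 and its promoter median the lowest. Just inside the width limit were a region in Gse1 (2999 bp) and one in Tspan15 (2998 bp), and just outside it were regions in Sox13 (3017 bp) and Cuedc1 (3018 bp), at 101, 100.1, 56.3 and 57.3 CPM on average.

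Intron 1 held more regions than any other, but regions lay far from a gene start. Intron 1 held 43.8%, intron 2 20.4%, intron 3 11.2% and later introns 24.6%. The median distance to the nearest start was 17979 bp (3002 to 350459 bp), and 32.4% were upstream of that start. The gene with the nearest start was the gene of the intron for 3576 regions (40.7%). The others were often named for a non-coding gene, as 3551 had a Gm-numbered gene as nearest start and 323 a miRNA gene. For example, 19 regions whose nearest start was Mir3075 all lay in introns of Zmiz1. Of the 3 miRNA genes that were the nearest start of 15 or more regions (Mir3075, Mir598 and Mir7077), the RefSeq table (GRCm38.p6) holds mature sequences of Mir3075 and Mir7077, shown with the seed (bases 2 to 8) in capitals to make plain what these labels name. They lie at chr14:25534491-25534511, chr8:117453025-117453045 and chr8:117453060-117453079, all on the plus strand, and no 2 share a seed.
mmu-miR-3075-3p: aUCCUUGGccuuccuaggugu
mmu-miR-7077-5p: gGCCAAGGucccauggcaggc
mmu-miR-7077-3p: cCUUCCAUggcuccuggcag
Genes are named below by the intron unless stated otherwise.

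The regions were spread over introns of 2997 genes, of which 1511 held a single region and 161 held 10 or more. These 161 genes held 2570 regions (29.3%). Gse1, a subunit of a histone deacetylase corepressor complex, held the most, with 68 regions over 334.6 kb. Next came Nav2, a cytoskeletal regulator of neurite growth, and Zmiz1, a transcriptional coactivator, each with 42, then Msi2, an RNA-binding protein of progenitor cells, with 40, and Rbfox3, a neuronal splicing factor, with 35. Summed over its 68 regions, Gse1 measured 1788 and 1933 CPM in Control and 1960 and 2018 CPM in Isl1CKO, and the 2 Isl1CKO libraries stood just above the Control libraries. Rbfox3 measured 575.8 and 612.8 CPM in Control and 734.9 and 715.4 CPM in Isl1CKO, again without overlap. Of its 34 tested regions 22 had a positive log2 fold change, with a median of 0.30. Over all tested intronic regions 41.7% were positive and the median was -0.19. Zmiz1 measured 1077 and 1189 CPM in Control and 1079 and 1128 CPM in Isl1CKO, and these groups overlapped. The groups also overlapped for Msi2, at 648.4 and 793.1 CPM against 674.0 and 772.3 CPM, and for Nav2, at 654.6 and 1038 CPM against 661.8 and 690.8 CPM, where the high value was again Control replicate 2.

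The 6 regions with the highest mean CPM lay in intron 1 of Foxo6, a forkhead transcription factor gene with 2 of them, intron 9 of Tmem104, intron 1 of Gm19209, intron 1 of Napa, which encodes the SNARE-disassembly factor alpha-SNAP, and intron 1 of Slc7a5, a large neutral amino acid transporter. Their log2 fold changes ran from -0.50 to 0.59 with SE of 0.30 to 0.35. The strongest Foxo6 region (chromosome 4, 120138330 to 120141146) measured 177 and 98.1 CPM in Control and 192 and 219 CPM in Isl1CKO. In each of these 6 regions the difference was under 2 SE.

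No single intronic region passed the test between the genotypes. With edgeR's quasi-likelihood test and Benjamini-Hochberg adjustment over the 30036 tested regions, 0 of the 8149 intronic regions that passed the filter were called, as were 0% of all regions, and the smallest adjusted p among them was 0.734. At an unadjusted p under 0.05, 3.96% were lower and 2.05% higher in Isl1CKO, against 3.12% and 2.71% of all tested regions. The groups did not overlap in 1859 regions with lower (22.8%) and 1176 with higher Isl1CKO values (14.4%), against 19.4% and 18.1% of all tested regions. DESeq2 called 5 intronic regions, in Cdh23 (lower) and in Cit, Fcgbpl1, Lmx1b and Abat (higher), where it called 0.102% of all regions. How many regions edgeR called depended on which Control library was kept, among intronic regions and among all regions alike. A fit that keeps 1 Control library has no replicate in that group, so these single-region counts are not given. In the authors' deposited table, 1183 intronic regions (13.5%) were lower and 1802 (20.5%) higher at an adjusted p under 0.05, against 9.25% and 27.8% of all regions. The library sizes implied by that table differ from the TMM sizes, at 1.93 against 1.41 for Control replicate 2 and 0.271 against 0.507 for Isl1CKO replicate 1, both relative to Control replicate 1.

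The lean toward lower values rested on Control replicate 2. The median log2 fold change of the intronic regions was -0.19, and that of all tested regions -0.03. With the authors' implied sizes both medians moved up, to 0.44 and 0.61, and the difference between them was -0.17 with either set of sizes. Without Control replicate 2 the medians were 0.04 and 0.03, and without Control replicate 1 they were -0.33 and -0.0028. The median was -0.68 in the 2038 regions with the lowest mean CPM, then in the following equal groups -0.17, -0.08 and, in the highest group, 0.02, and without Control replicate 2 the 4 values were -0.18, 0.03, 0.08 and 0.08. It changed little with the number of the intron, from -0.13 in intron 3 to -0.22 in intron 4 and later. Distal intergenic regions had a median of -0.22 and promoters one of 0.06, so the intronic regions resembled the intergenic ones in this respect; the difference between classes was not tested. Intronic regions took up 15.4% and 19.7% of the H3K27ac counts in the Control pair and 14.6% and 15.98% in Isl1CKO (17.6% ± 3.00 against 15.3% ± 0.957, SD, n = 2 each), with a two-sided exact permutation p of 0.667 in a design whose smallest possible p is 0.333.

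**Figure D1:**
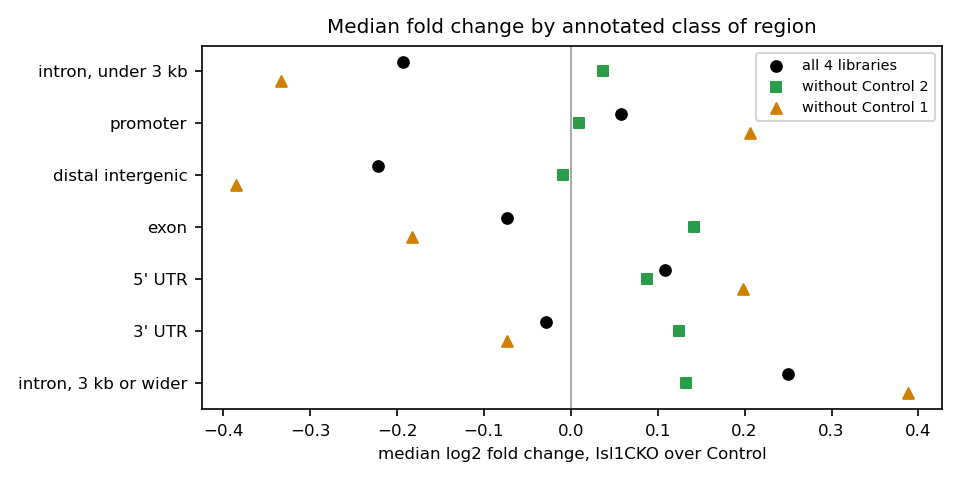
Median log2 fold change (Isl1CKO over Control, x axis) of the tested H3K27ac regions of each annotated class (y axis), with all 4 libraries (circles), without Control replicate 2 (squares) and without Control replicate 1 (triangles). The intronic median moved from -0.19 to 0.04 without Control replicate 2 and to -0.33 without Control replicate 1.

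Summing the regions within a gene gave a second test. For this test, added after the single-region results were seen, the counts of all intronic regions of a gene were summed, and edgeR was run on the 2803 of 2997 genes that passed the filter, with the library sizes of the whole table. It called 9 genes (0.321%), 6 lower and 3 higher in Isl1CKO. Ctif, Ippk and Fcgbpl1 rose, and Sdk2, Chst11, Kcnj12, Nalf1, Hdac9 and 1700012I11Rik fell. Each gene kept its direction wherever it was tested, under all 9 alternatives tried, but the calls did not hold for every choice of libraries. A fit with 1 library left out has no replicate in that group, so its calls are not given. With the authors' implied sizes 2 of the 9 were called, and with library totals 4. At an unadjusted edgeR p under 0.05, 205 genes were lower and 50 higher. The median log2 fold change of the gene sums was -0.28, and -0.02 without Control replicate 2.

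Ctif, a translation initiation factor that binds the nuclear cap-binding complex, rose with the smallest p. Its 13 regions spread over 2 introns on chromosome 18 (75740448 to 75817913), 12 of them in intron 1. They summed to 170.6 and 186.4 CPM in Control and 407.7 and 402.0 CPM in Isl1CKO (178.5 ± 11.2 against 404.9 ± 4.09, SD, n = 2). Both Isl1CKO libraries lay far above both Control libraries, and the libraries within each group lay close together. The log2 fold change was 1.18 (SE 0.23, edgeR adjusted p = 0.00664), and 1.25 without Control replicate 2. Of the 13 regions 12 had a positive log2 fold change, against 41.7% of all tested intronic regions. In 9 the groups did not overlap, against 14.4% with Isl1CKO higher. Ctif was chosen by the sum of these same regions, so these counts describe the sum and add no support. The region in intron 5 had 4 and 9 counts in the Control pair and 26 and 40 in Isl1CKO. The Ctif promoter region measured 65.4 ± 29.7 CPM in Control and 57.8 ± 34.5 CPM in Isl1CKO, a log2 fold change of -0.14 (SE 0.50).

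Ippk, the kinase that makes inositol hexakisphosphate, rose in 2 neighbouring regions of its first intron (chromosome 13, 49578231 to 49582742). Their counts were 6 and 5 in Control and 24 and 30 in Isl1CKO for one, and 5 and 7 against 20 and 55 for the other. Together they measured 8.49 and 6.58 CPM in Control and 66.9 and 59.7 CPM in Isl1CKO, so the groups were far apart in every library. The log2 fold change was 3.06 (SE 0.73, edgeR adjusted p = 0.0380), and 2.88 without Control replicate 2. At the Ippk promoter H3K27ac was 83.2 ± 6.799 CPM in Control and 122 ± 11.2 CPM in Isl1CKO (SD, n = 2), which gave 0.56 on the log2 scale (SE 0.34). Fcgbpl1 rested on a single region in intron 10 of 19 (chromosome 7, 27850647 to 27851546). This region had 2 and 1 counts in the Control pair and 21 and 50 in Isl1CKO. No regions were added up for Fcgbpl1, so its gene sum is these same counts. In the single-region test, adjusted over all tested regions and not over genes, they did not pass (edgeR adjusted p = 0.760). The ratio of the Fcgbpl1 counts summed per group, scaled by library size, was 35.5 (95% exact interval 11.7 to 176.2, counting error only). The log2 fold change was 4.95, or 4.35 without Control replicate 2.

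Sdk2, an adhesion protein of the sidekick family that guides synaptic partners, fell across a long first intron. Its 10 regions (chromosome 11, 113842160 to 113952691) summed to 247.8 and 226.4 CPM in Control and 77.6 and 88.5 CPM in Isl1CKO (237.1 ± 15.1 against 83.1 ± 7.74, SD, n = 2). The 2 Control libraries were close to each other and far above both Isl1CKO libraries. The log2 fold change was -1.50 (SE 0.30, edgeR adjusted p = 0.0105), and -1.57 without Control replicate 2. All 8 tested regions had negative log2 fold changes, from -0.19 to -2.87, and in 5 of them the groups did not overlap. Over all tested intronic regions 58.3% were negative, and in 22.8% the groups did not overlap with Isl1CKO lower. Here too the regions are those of the sum that chose the gene, so the counts add no support. The Sdk2 promoter, whose sequence is printed above, measured 61.0 ± 33.9 CPM in Control and 18.9 ± 5.14 CPM in Isl1CKO, a log2 fold change of -1.67 (SE 0.59) that did not pass the test over all regions. At 2 of the 10 regions an H3K27me3 region overlapped.

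**Figure D2:**
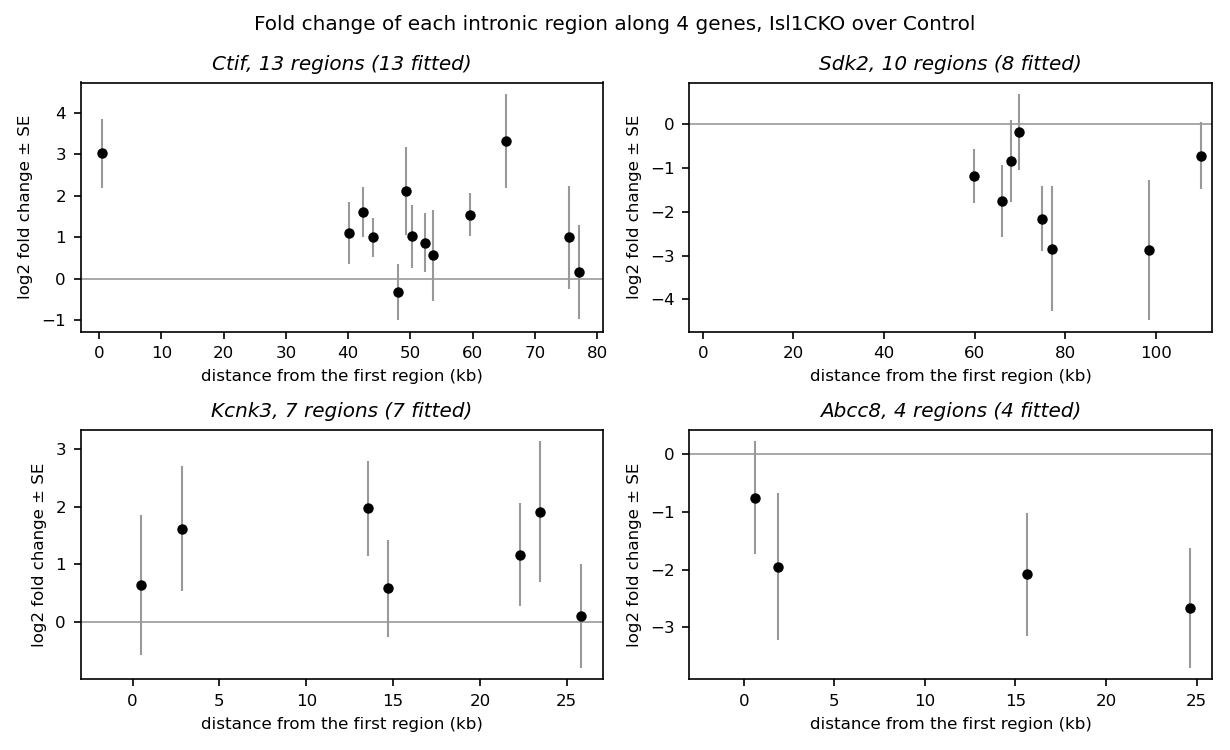
Log2 fold change (Isl1CKO over Control, y axis, bars are SE) of each tested intronic region of Ctif, Sdk2, Kcnk3 and Abcc8 against its distance in kb from the first intronic region of the gene (x axis). In Ctif 12 of 13 points lie above 0, in Sdk2 all 8 lie below it, in Kcnk3 all 7 lie above it and in Abcc8 all 4 lie below it. The genes were chosen after these values were seen.

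Chst11, a sulfotransferase of chondroitin sulfate, fell in 3 regions spread along the gene (chromosome 10, 82907442 to 83018152). Their counts were 32 and 36 in Control and 0 and 3 in Isl1CKO for the region in intron 1, and 24 and 92 against 0 and 6 and then 13 and 44 against 0 and 0 for those in intron 2. Together they measured 53.3 and 94.3 CPM in Control and 0 and 6.32 CPM in Isl1CKO, a log2 fold change of -4.22 (SE 0.81, edgeR adjusted p = 0.00664), and -3.74 without Control replicate 2. The Chst11 promoter measured 25.3 ± 5.26 and 17.3 ± 9.36 CPM, a log2 fold change of -0.51 (SE 0.72), which is within its error.

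The other genes that fell include 3 with roles in excitability or chromatin. Kcnj12, an inwardly rectifying potassium channel gene, held 4 regions in its intron (chromosome 11, 60928901 to 60937316), which summed to 57.9 and 112 CPM in Control and 10.7 and 11.2 CPM in Isl1CKO, a log2 fold change of -2.95 (SE 0.63, edgeR adjusted p = 0.0177) and of -2.38 without Control replicate 2. Nalf1, an auxiliary factor of the sodium leak channel NALCN, held 5 (chromosome 8, 9287056 to 9387561), at 61.0 and 125 CPM against 18.3 and 15.5 CPM, with a log2 fold change of -2.48 (SE 0.57) and of -1.87 without that library. Its promoter did not follow, at 46.2 ± 5.25 and 52.2 ± 10.2 CPM (SD, n = 2). Hdac9, a class IIa histone deacetylase gene, held 2 regions with 12 and 99 counts in the Control pair and 0 and 1 in Isl1CKO. The scaled ratio of Isl1CKO to Control was 0.0135 (95% exact interval 0.000339 to 0.0769), but over 70% of the signal of both regions came from Control replicate 2. The 2 regions of 1700012I11Rik had 21 and 105 counts against 0 and 2, a scaled ratio of 0.0238 (0.00285 to 0.0878). One of them had 2 and 65 counts in Control, so it too rests on Control replicate 2, without which the log2 fold change of the sum went from -5.22 to -4.02. The Hdac9 sum could not be tested without that library.

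**Figure D3:**
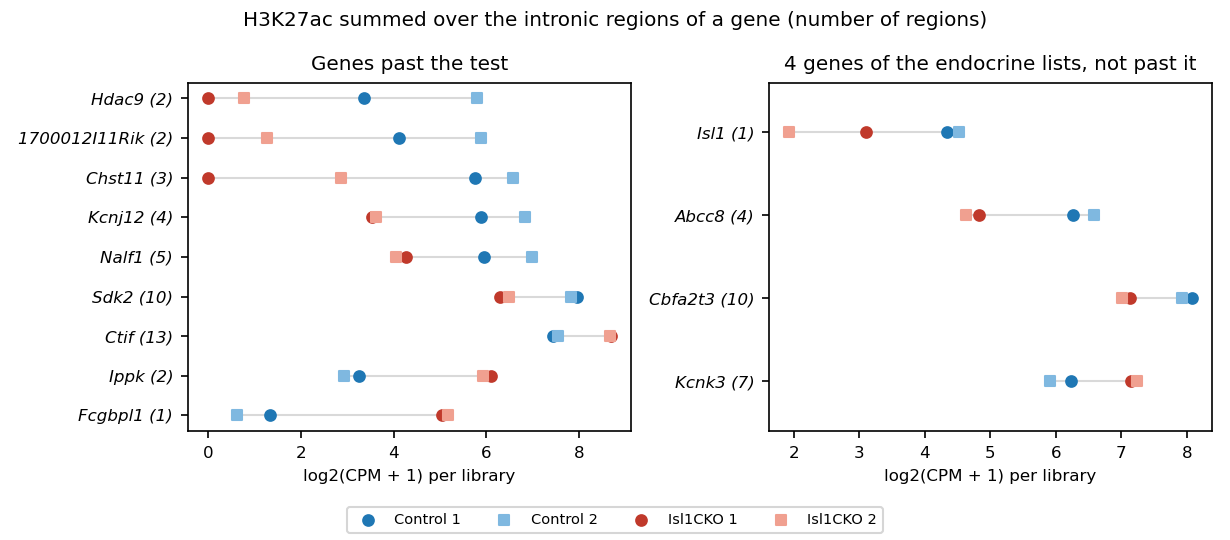
H3K27ac summed over the intronic regions of a gene, as log2(CPM + 1) per library (x axis), for the 9 genes past the test (left) and 4 genes of the endocrine lists that were not (right); the number of regions is in parentheses. Blue marks Control, red Isl1CKO, circles replicate 1 and squares replicate 2. No gene shown has overlapping groups, but the genes were chosen by p or after their values were seen, so this adds no support.

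Among single regions, those with the smallest unadjusted p on the higher side were led by Cit. A region in its intron 26 of 45 (chromosome 5, 116115763 to 116116842) had 1 and 0 counts in the Control pair and 30 and 34 in Isl1CKO. The scaled ratio was 96.0 (95% exact interval 16.6 to 3850), and the edgeR adjusted p was 0.734 with all 4 libraries. The region was listed and passed the filter only through the Isl1CKO libraries, and it was chosen by its p. Its ratio and interval are thus a description and no support for a difference. The Cit promoter measured 19.6 ± 11.5 CPM in Control and 13.99 ± 9.03 CPM in Isl1CKO. Lmx1b, a LIM-homeodomain transcription factor gene of the same class as Isl1, had 15 and 27 counts in the Control pair and 36 and 101 in Isl1CKO in intron 2 (chromosome 2, 33484697 to 33485698), or 13.2 ± 2.28 against 62.9 ± 11.5 CPM (SD, n = 2). The difference was 2.24 on the log2 scale (SE 0.57). It was 2.44 when Control replicate 2 was left out. Lmx1b had 0.96 (SE 0.52) at its promoter.

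Further regions on this side lay in metabolic and regulatory genes. Abat, the GABA-degrading transaminase, had 24 and 11 counts against 37 and 108 in intron 1, and Pfkfb3, which sets the level of a glycolytic activator, had 8 and 0 against 35 and 47 in intron 1. For Pfkfb3 the promoter was also higher, at 70.2 ± 7.76 and 143 ± 23.5 CPM, a log2 fold change of 1.03 (SE 0.34). Camta1, a calmodulin-binding transcription activator, had 5 and 6 counts against 41 and 21 in intron 5. All 8 regions named on the higher side had edgeR adjusted p between 0.734 and 0.838, so none passed the test.

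Cntfr, the receptor subunit for ciliary neurotrophic factor, had regions on both sides. In its intron 4 (chromosome 4, 41664583 to 41665761) the counts were 11 and 15 in Control and 32 and 63 in Isl1CKO, a log2 fold change of 2.46 (SE 0.66). In its intron 2 (chromosome 4, 41682581 to 41683359) they were 46 and 86 against 6 and 4, a log2 fold change of -2.91 (SE 0.80). Without Control replicate 2 the values were 2.43 and -2.70. The 2 regions of 1 gene thus differed in opposite directions with no overlap between the groups in either, though neither passed the test. The intron 2 region lay almost wholly (778 of 779 bp) under an H3K27me3 region with 25 and 29 H3K27me3 counts in the Control pair and 11 and 6 in Isl1CKO.

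On the lower side, Igsf21, a synaptic adhesion gene, had the most counts. Its region in intron 2 (chromosome 4, 139836137 to 139836456) measured 65.6 and 54.8 CPM in Control and 13.7 and 13.4 CPM in Isl1CKO, a log2 fold change of -2.15 (SE 0.58), and -2.27 without Control replicate 2. Cacna2d2, a calcium channel auxiliary subunit gene, had 14 and 64 counts against 0 and 1 in intron 2 (chromosome 9, 107327437 to 107328064), and the whole region lay inside an H3K27me3 domain of 23236 bp with 888 and 751 H3K27me3 counts in the Control pair and 1598 and 1479 in Isl1CKO. As CPM of the H3K27me3 libraries, these were 738.6 and 429.0 against 701.8 and 654.4, and the groups overlapped. Crtac1 had 10 and 57 counts against 0 and 0 in intron 11, at least 14.9-fold lower when 3 counts are allowed for the Isl1CKO group, and Mrtfb, a coactivator of serum response factor, had 14 and 47 against 0 and 0 in intron 2, at least 13.6-fold lower. In both of these Control replicate 2 was the higher Control library. The other regions named on this side lay in Cdh23, Kcnj12 and D630033O11Rik, the last with 13 and 108 counts against 0 and 3. Adjusted p on this side ran from 0.806 to 0.838.

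**Figure D4:**
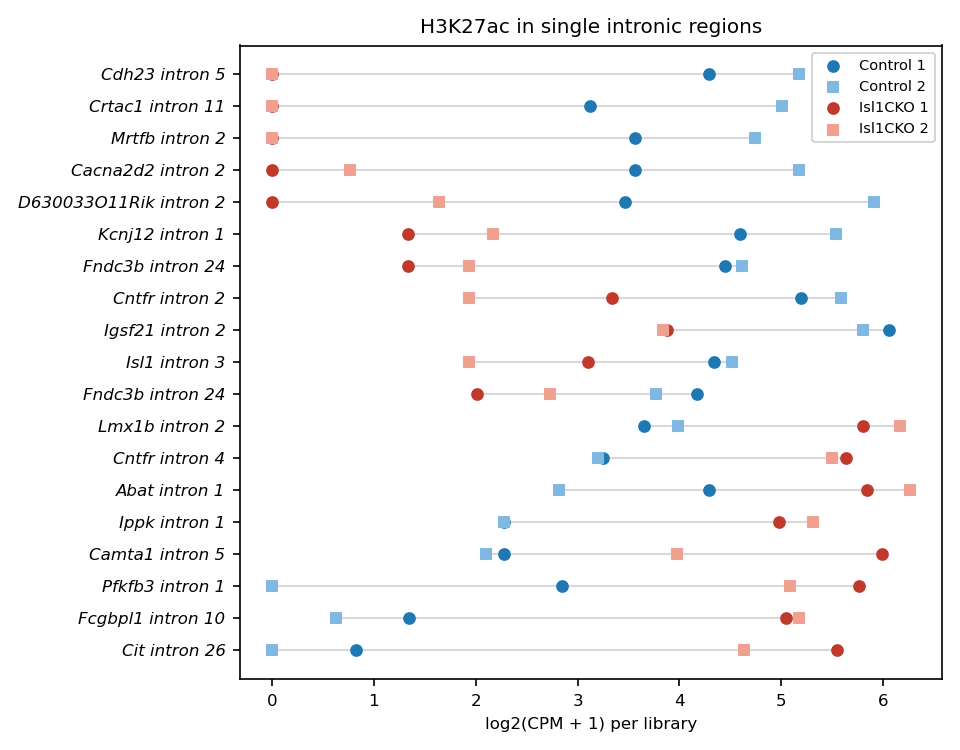
H3K27ac in single intronic regions, as log2(CPM + 1) per library (x axis), for the 16 regions with the smallest unadjusted p in either direction, the Isl1 region and 2 regions in Fndc3b nearest to the Ghsr start. Blue marks Control, red Isl1CKO, circles replicate 1 and squares replicate 2; points at 0 are libraries with no count.

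At Isl1 itself the single intronic region (intron 3 of 5, chromosome 13, 116440265 to 116441140) had 25 and 40 counts in the Control pair and 5 and 4 in Isl1CKO. In CPM these were 19.3 and 21.9 against 7.61 and 2.81, so every Isl1CKO value was under every Control value. The Isl1 promoter region differed less, at 53.0 ± 14.53 and 45.7 ± 0.0241 CPM (SD, n = 2). The position of the loxP sites relative to the intronic region is not given in the sources used here, so this value is no test of the deletion. In the ISL1 CUT&Tag table, which lists whole numbers in windows at gene starts with no stated unit, the Isl1 window had 9 at E14.5 and 0 at P9.

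Regions in introns of beta cell genes had mostly negative log2 fold changes. Of the 24 genes on a list of beta cell identity genes, 5 held an intronic region, with 49 tested regions in all, of which 35 (71.4%) had a negative log2 fold change, against 58.3% of all tested intronic regions. In 11 (22.4%) the groups did not overlap with Isl1CKO lower, near the 22.8% of all intronic regions, and in 3 (6.12%) with Isl1CKO higher, against 14.4%. Their median was -0.57, and -0.24 without Control replicate 2, against -0.19 and 0.04 over all intronic regions. With the authors' implied sizes the median turned positive, at 0.22, against 0.44 over all intronic regions. The count rests mainly on Ptprn2, an insulin granule protein, which held 32 of the 49. Abcc8, the sulfonylurea receptor subunit of the ATP-sensitive potassium channel, had the largest difference. Its 4 intronic regions (chromosome 7, 45781474 to 45806438) summed to 75.6 and 95.4 CPM in Control and 27.4 and 23.9 CPM in Isl1CKO (85.5 ± 13.9 against 25.6 ± 2.47, SD, n = 2). The log2 fold change of the sum was -1.75 (SE 0.54, edgeR adjusted p = 0.153), and -1.57 without Control replicate 2, which is close to that of the Abcc8 promoter region, at -1.75 (SE 0.45). An H3K27me3 region overlapped 3 of the 4.

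Other beta cell genes were mixed. Trpm5, a calcium-activated cation channel gene, had 1 region at -0.87, and Syt7, a calcium sensor of insulin release, had 8 tested regions with a median of -0.08. Within Syt7, an intron 1 region (chromosome 19, 10374958 to 10376064) measured 30.9 and 30.7 CPM in Control and 10.7 and 10.5 CPM in Isl1CKO, while the Syt7 promoter had a log2 fold change of 0.70 (SE 0.32). The Slco1a5 region nearest to the start of Iapp, the amyloid peptide co-secreted with insulin, measured 42.5 and 13.7 CPM against 12.2 and 33.7 CPM, which overlap.

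For the other hormone cell types few intronic regions were listed. Introns of alpha cell identity genes held 5 regions with a median of -0.35 (0.42 with the authors' implied sizes), in Pcsk2, the convertase that makes glucagon, Slc7a2, an amino acid transporter, and Ttr, the thyroxine carrier transthyretin. The Slc7a2 region measured 12.4 and 12.6 CPM against 13.7 and 6.32 CPM, and the Ttr region 16.2 and 6.03 against 13.7 and 8.43 CPM. Introns of delta, PP and epsilon cell genes held none. By nearest start, that list had 2 regions, both in intron 24 of Fndc3b and nearest to Ghsr, the ghrelin receptor gene. They lie next to each other (chromosome 3, 27483312 to 27485388) and had 27 and 43 counts against 1 and 4, and 22 and 23 against 2 and 8. On the log2 scale the differences were -3.22 (SE 1.10) for the first and -1.70 (SE 1.19) for the second. Leaving out Control replicate 2 gave -3.12 and -1.88, while the Fndc3b promoter stood at -0.06 (SE 0.44).

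Islet transcription factor genes had 47 tested intronic regions in 16 genes, with 29 negative (61.7%) and 18 positive log2 fold changes, near the 58.3% negative of all intronic regions. In 13 (27.7%, against 22.8%) both Isl1CKO values were below Control and in 3 (6.38%, against 14.4%) above. The list had a median of -0.37 (-0.34 without Control replicate 2, and 0.39 with the authors' implied sizes). Tshz1, a zinc finger factor, held 10, of which 7 were negative and 5 lay below Control, at sums of 176.01 ± 21.8 CPM in Control and 138.8 ± 25.3 CPM in Isl1CKO. Glis3, a factor of insulin gene transcription, had 5 of 6 positive but similar sums, at 95.7 ± 12.1 and 96.8 ± 25.1 CPM. None of its tested regions lay above both Control libraries, and its median of 0.49 became -0.10 without Control replicate 2. Rfx3, a factor of endocrine differentiation, had 14.7 ± 0.0941 CPM in Control and 8.02 ± 0.584 CPM in Isl1CKO in its single region. For Pax6 the 3 regions summed to 78.9 ± 51.1 and 65.6 ± 21.2 CPM, and the spread in Control exceeded the difference. A strong region in intron 1 of Cerkl, the neighbour of Neurod1 (chromosome 2, 79239379 to 79241619), measured 66.4 and 52.1 CPM against 45.6 and 59.7 CPM, with no difference beyond its spread.

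Regions in introns of endocrine progenitor genes had mostly negative log2 fold changes. Of the 15 genes on the list 4 held an intronic region. Of 17 tested regions in these 4 genes, 14 (82.4%) had a negative log2 fold change, against 58.3% of all intronic regions, and 9 (52.9%, against 22.8%) lay below both Control libraries and 0 (against 14.4%) above. The counts rest mainly on Cbfa2t3, with 10 regions (8 negative, 5 below), and Notch1, with 4 (4 negative, 3 below). Regions of 1 gene are not independent observations. The median was -0.90 (-0.64 without Control replicate 2). With the authors' implied sizes it was -0.25, below the 0.44 of all intronic regions, and it was negative under each alternative run. Cbfa2t3, a corepressor of the ETO family, held 10 regions, 8 of them in intron 1 (chromosome 8, 123363502 to 123403172), which summed to 269.4 and 242.8 CPM in Control and 140.0 and 128.6 CPM in Isl1CKO (256.1 ± 18.8 against 134.3 ± 8.04, SD, n = 2). The groups did not overlap, and the libraries within each were close. The log2 fold change was -0.93 (SE 0.27, edgeR adjusted p = 0.131), and -1.01 without Control replicate 2. Notch1, the receptor that holds back endocrine commitment, had 4 negative of 4 tested regions, at 77.2 and 130 CPM against 39.6 and 49.9 CPM. Gli3, a hedgehog pathway factor, had 1 region at 36.9 ± 5.67 and 21.2 ± 0.154 CPM, and Gli2 had 2 on opposite sides.

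**Figure D5:**
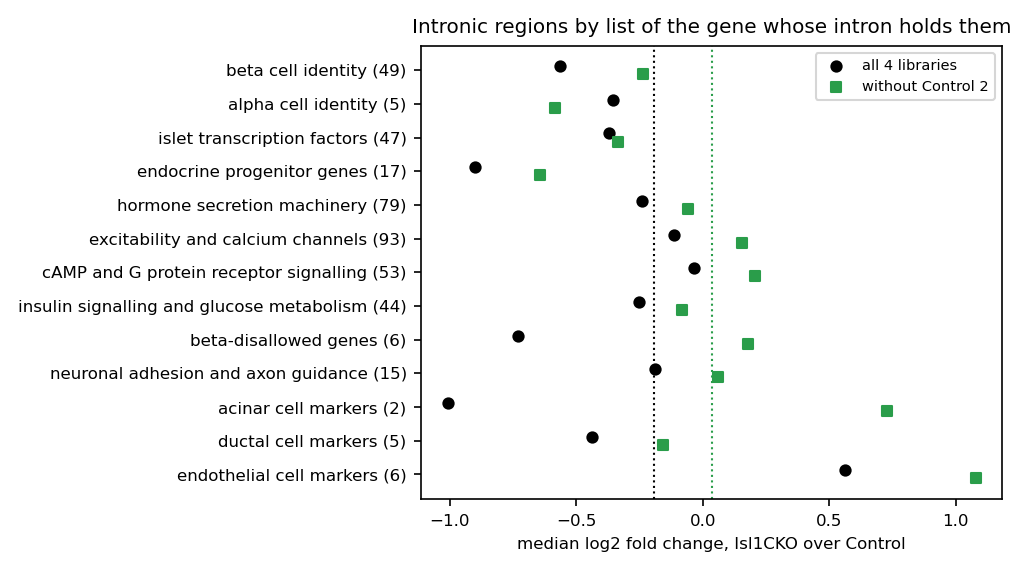
Median log2 fold change (Isl1CKO over Control, x axis) of the tested intronic regions of each gene list, matched on the gene of the intron (number of regions in parentheses), with all 4 libraries (circles) and without Control replicate 2 (squares). Dotted lines are the medians over all intronic regions, -0.19 and 0.04.

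Matched on the intron, secretion, channel and signalling genes were near the median of all intronic regions. Hormone secretion machinery had 79 tested regions with 49 negative, and a median of -0.24 (-0.06 without Control replicate 2). By the nearest start its 29 tested regions had 16 positive log2 fold changes and a median of 0.29 (-0.02 without Control replicate 2). Syt13, a synaptotagmin of endocrine precursors, held 16 with 8 on each side, and Cplx2, a SNARE-binding complexin, measured 28.6 and 36.2 CPM against 60.9 and 30.2 CPM in its single region. Excitability and calcium channel genes had 93 with 50 negative and a median of -0.11 (0.16). Kcnk3, a background potassium channel gene, stood opposite to Abcc8. All 7 of its regions (chromosome 5, 30749291 to 30775428) had positive log2 fold changes, against 41.7% of all tested intronic regions. In 2 of the 7 both Isl1CKO libraries lay above both Control libraries, against 14.4%. Kcnk3 was chosen after its values were seen, so these counts add no support. Together the 7 regions measured 74.1 and 59.2 CPM in Control and 141 and 151 CPM in Isl1CKO (66.7 ± 10.5 against 146.3 ± 6.78, SD, n = 2). The sum differed by 1.14 on the log2 scale (SE 0.37, edgeR adjusted p = 0.197) and 0.98 without Control replicate 2. The Kcnk3 promoter had 0.27 (SE 0.32). Cacna1d, an L-type calcium channel gene of islet cells, had 8 positive of 11, at 197.8 ± 42.8 and 252.7 ± 30.3 CPM, whereas Cacna1c, another L-type gene, had 13 negative of 22 and Cacna1a, a P/Q-type gene, 8 of 12. The strongest Cacna1a region measured 110 and 132 CPM against 117 and 97.0 CPM.

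For cAMP and G protein receptor signalling 27 of 53 regions were negative with a median of -0.03 (0.21 without Control replicate 2). By the nearest start 2 of its 10 tested regions were negative, with a median of 0.21 (0.37 without that library). Adcy5, an adenylate cyclase, measured 159.7 ± 16.5 and 121.1 ± 33.1 CPM over 8 regions, and the strongest region of Prkar1b, a regulatory subunit of protein kinase A, 34.0 and 47.1 CPM against 44.1 and 45.7 CPM. For insulin signalling and glucose metabolism the median over 44 regions was -0.25 (-0.08), with 26 negative. Irs1, the insulin receptor substrate, measured 48.6 and 37.3 CPM against 41.1 and 25.3 CPM, and the stronger of 2 regions of Pcx, pyruvate carboxylase, 24.7 and 34.0 against 19.8 and 21.8 CPM. Both Pcx regions together measured 35.5 and 56.5 CPM against 19.8 and 21.8 CPM, as the weaker one had no count in Isl1CKO. Larger differences in these lists were seen in Irs2, another insulin receptor substrate, at 36.3 and 30.1 CPM against 9.13 and 4.22 CPM, in Pde10a, a cyclic nucleotide phosphodiesterase, at 23.9 and 11.5 against 0 and 0.703 CPM, and in Syt14 of the secretion list, at 11.6 and 37.3 against 4.56 and 2.11 CPM. These 3 genes, each with 1 region and chosen after their values were seen, did not pass the test on gene sums (edgeR adjusted p of 0.353, 0.241 and 0.336). The strongest Igf2bp2 region measured 9.26 and 63.0 CPM against 16.7 and 10.5 CPM, a difference that lies in Control replicate 2 alone. Beta-disallowed genes, which mature beta cells keep low, had 6 tested regions with a median of -0.73 that became 0.18 without that library, and the 3 regions named for Smad3, a TGF-beta effector, had log2 fold changes of -0.37, -1.09 and 0.66. For neuronal adhesion and axon guidance genes, 15 regions had a median of -0.19 (0.06), with Sema6a, a semaphorin, at 6.95 and 20.8 CPM against 1.52 and 17.6 CPM and the strongest Slit1 region at 8.49 and 23.0 against 4.56 and 10.5 CPM. With the authors' implied sizes the medians were 0.38 for secretion, 0.57 for channels, 0.56 for cAMP, 0.36 for insulin signalling, -0.01 for beta-disallowed and 0.34 for neuronal genes, against 0.44 over all intronic regions.

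Few intronic regions belonged to genes of other cell types. Immune and glial marker lists had none, by the intron or by the nearest start. By the intron, acinar markers had 2 regions, both in Nr5a2, ductal markers 5, endothelial markers 6 and mesenchymal markers 0. The summed acinar level was 13.1 and 63.0 CPM in Control and 19.8 and 21.1 CPM in Isl1CKO, and the endothelial one 68.7 and 126 CPM against 86.7 and 145 CPM. Both were higher in Control replicate 2 than in Control replicate 1. Of the 6 endothelial regions 4 had a positive log2 fold change, with a median of 0.56 (1.08 without Control replicate 2). These 4 were among the 5 regions of Pecam1, an endothelial adhesion gene, which summed to 55.6 and 103.6 CPM against 85.2 and 133.5 CPM. The strongest of the 5, in intron 1, gave 10.0 and 62.5 CPM against 16.7 and 23.2 CPM, and the single region of Tek, an angiopoietin receptor, 13.1 and 21.9 CPM against 1.52 and 11.2 CPM. By the nearest start, 3 endothelial regions had a median of -0.85 (1.00 without Control replicate 2). The part of these other cell types in the results was not tested. In Bod1l, the region nearest to the mesenchymal gene Nkx3-2 measured 14.7 and 2.19 CPM against 4.56 and 20.4 CPM.

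An H3K27me3 region overlapped 187 intronic regions (2.13%, 95% exact interval 1.84 to 2.45), against 10.2% of promoter and 4.55% of distal intergenic regions. H3K27me3 is the mark of Polycomb repression and, as cells are pooled, an overlap does not place both marks in the same cell. The overlap covered at least 50% of the width in 171. The 169 tested had a median log2 fold change of -0.35, and 43 of them (25.4%) lay below Control in both libraries, against a median of -0.19 and 22.8% for the 7980 tested regions without overlap. Without Control replicate 2 the medians were -0.01 and 0.04. At the Nr5a2 region in intron 3, which lay wholly under H3K27me3, the H3K27me3 CPM were 81.5 and 76.0 in Control and 119 and 127 in Isl1CKO, and the H3K27ac CPM 3.09 and 27.4 against 15.2 and 14.1.

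No intronic region overlapped an ISL1 window, because those windows lie at gene starts. Among the 2528 intron genes with a window, 61.6% had a value of at least 1 at E14.5 and 12.1% at P9. For the 156 such genes with 10 or more intronic regions the shares were 72.4% and 13.5%, for genes with an H3K27ac promoter region and no intronic region 60.1% and 10.7%, and for all 22332 genes with a window 37.7% and 8.86%. The ISL1 libraries are from Control cells only, 2 at E14.5 given as a pooled column and 1 at P9, so these shares have no replicate error. Ctif had 8 at E14.5, Sdk2, Chst11, Kcnj12 and Abcc8 had 3 each, Nalf1 and Hdac9 had 1, and Ippk and Cbfa2t3 had 0. Kcnk3 had 3 at P9, and Fcgbpl1 had 1.

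Intronic and promoter differences of a gene were only loosely related. Across 1891 genes with both, Spearman's rho between the median log2 fold change in the introns and that of the promoter region was 0.09 (0.09 without Control replicate 2). These are points that share the 4 libraries and their scaling, genes are not independent replicates, and no test was made. Inside introns Pearson's r between the 2 Control libraries was itself 0.09, and its part in the low rho was not tested. The intronic and promoter values were both negative in 499 of the 1891 genes and both positive in 444. The remaining genes did not share a sign. Sdk2 and Abcc8 are examples of the first kind, with similar log2 fold changes in introns and at the promoter, whereas in Ctif, Chst11 and Nalf1 the intronic sum differed and the promoter did not differ beyond its error.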

How the data were processed

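H3K27ac CUT&Tag was measured in 2 Control and 2 Isl1CKO libraries. Each region's raw count per library was deposited by the authors, and every listed region has at least 50 counts over the 4. Per the submitters' processing notes, the tools were edgeR 4.0.16, ChIPseeker 1.38.0, MACS2 2.2.6, Picard 2.27.4 and Bowtie2 2.3.5.1, with GRCm39; their order and settings are not given in the sources used here. The authors' deposited log2 fold changes and adjusted p-values were rebuilt from the counts, which gave a preset dispersion of 0.04 and the implied library sizes. The unit of the ISL1 windows is not given per the file headers, so their values are printed as listed and compared only as shares of at least 1. Chromosome labels of the deposited H3K27ac and H3K27me3 tables did not match the gene positions beside them, and were reassigned by a relabelling under which 100% of 18449 regions with a usable gene position matched, against 7.48% as listed.

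Of 31587 listed rows 108 repeats were dropped. Counts were tested with edgeR 4.0.16 (R 4.3.3): TMM factors, filterByExpr, the quasi-likelihood test and Benjamini-Hochberg adjustment over all tested regions, at 0.05. SE is the size of the log2 fold change over the square root of F. DESeq2 1.42.0 was an alternative. Python 3.11.15 and scipy 1.17.1 did the rest. Intervals and the floor of 3 counts cover counting error only. Regions with few counts in 1 group entered the test through the other group. The ratios printed for them describe the values by which they were chosen. p-values measure the spread between 2 pools a group.

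Named regions are, per direction, the 8 with the smallest p and no overlap of groups, the 6 highest, the strongest in the 5 genes with the most regions, up to 3 per endocrine list and 2 per list of another cell type, those at Isl1 and those at the width limit. Genes named for their intronic sums were chosen after their values were seen. The regions and lists were chosen with earlier results of these data known. Matching lists on the gene of the intron, and the sums per gene, were added after the data were seen. Matched on the nearest start instead, the secretion, cAMP and endothelial medians had the opposite sign. The other lists with tested regions under both matchings kept their sign. Sequence features of the regions were not analysed here. Some single genes of the lists are not reported here.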

Additional observations from a re-analysis of the deposited data

How the results depend on the processing

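Leaving out either Control library, and the authors' implied sizes, changed more values than leaving out an Isl1CKO library, other scalings, the filter or the block did; the cause was not tested. The number of intronic regions called was 0 with TMM or DESeq2 size factors, library totals, no filter or a replicate block, 1 with the authors' implied sizes, 5 with DESeq2, and 0 to 568 with a library left out. Of the 16 regions chosen by p the calls were 1, 5 and 0 to 15 in the last 3 of these. These 16 regions were picked for small p and no overlap of groups in the same counts. Their calls under another fit therefore follow from that choice and add no support. A fit with 1 library left out also has no replicate in that group, so no conclusion is drawn from its number of calls. The median log2 fold change became 0.44 with the authors' sizes. The share overlapping H3K27me3 became 1.54% with H3K27me3 regions of at least 100 counts. Gene sums called were 4 with library totals, 3 with the authors' sizes, 21 without a filter, 30 with the replicate block and 0 to 216 with a library left out. Same-numbered libraries share only a number: their deviations correlated at 0.05, and the block added calls for Cbfa2t3 (edgeR adjusted p = 0.0333) among others.

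Single-region log2 fold changes that changed sign were all uncalled. With the authors' sizes they became 0.71 in Gm19209, 0.27 in Napa, 0.12 in Slc7a5, 0.54 in Gse1, 0.18 in Msi2, 0.42 in Rbfox3, 0.057 in Slco1a5, 0.42 in Slc7a2, 0.61 in Ttr, 0.40 in Cerkl, 0.27 in Syt13, 0.56, 0.68 and 0.51 in Cacna1a, 0.35 in Irs1, 0.15 in Pcx, 0.15 in Smad3, 0.74 in Nr5a2, 0.53 in Tspan15 and 0.17 in Sox13. Without a filter Gm19209 became 0.0093, with the replicate block Ttr became 0.12 and Nr5a2 0.44, and with library totals Cuedc1 became -0.0016.

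With 1 library left out, ranges that cross 0 were -0.12 to 0.12 in Gm19209, -0.90 to 0.084 in Slc7a5, -0.34 to 0.24 in Gse1, -0.0079 to 0.89 in Zmiz1, -0.73 to 0.24 in Rbfox3, -1.18 to 0.84 in Slco1a5, -0.95 to 0.15 in Slc7a2, -0.58 to 0.88 in Ttr, -0.36 to 0.081 and -1.36 to 0.081 in Cerkl and -0.72 to 0.45 in Syt13. Further such ranges were -0.074 to 0.92 in Cplx2, -0.77 to 0.40 and -0.39 to 0.024 in Cacna1a, -0.021 to 0.40 and -0.25 to 0.45 in Prkar1b, -2.21 to 0.52 in Igf2bp2, -1.76 to 0.043 and -0.12 to 1.15 in Smad3 and -3.10 to 0.56 in Sema6a. The rest were -0.86 to 2.1998 in Nr5a2, -1.56 to 1.00 in Pecam1, -0.85 to 2.57 in Bod1l, -0.98 to 0.16 in Sox13 and -0.65 to 1.33 in Cuedc1. With 1 library left out, the lone library of a group was assumed to vary like the other group.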
